A study of Mus musculus with 8 samples.

Results

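The clustered protocadherins are 3 neighbouring families of cell adhesion genes on mouse chromosome 18, named alpha, beta and gamma. All protein-coding rows of the deposited table whose symbol belongs to these families were taken, which gave 57 of 34866 genes: 14 alpha, 22 beta and 21 gamma members. On GRCm38 the alpha members lay at 36930184 to 37187661, the beta members at 37264938 to 37524479 and the gamma members at 37661793 to 37841873, all on the plus strand. RNA was measured by RNA-seq in the whole brains of 8 embryos of the Ohia mouse line, a model of hypoplastic left heart syndrome. The 3 mutants were homozygous for the mutant alleles of Sap130 and of Pcdha9 (m/m for both). The 5 controls each carried 1 mutant copy of both genes (+/m), so no embryo was wild type at either gene and neither mutation was separated from the other. At E13.5 there were mutant 260-1 and controls 260-2 and 260-3. At E14.5 there were mutants 195-3 and 303-2 and controls 195-2, 195-6 and 303-3. The number before the dash is read here as the litter, although the labels do not define it.

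Each clustered protocadherin is a membrane protein with extracellular cadherin repeats that binds the same isoform on a neighbouring cell. In the alpha and gamma clusters every variable exon has its own promoter and is spliced to constant exons that all members of the cluster share, whereas a beta gene is a single coding exon with no constant region. A neuron switches on a few alpha, beta and gamma promoters, largely at random, through CTCF, cohesin and distant enhancers, while the C-type members at the end of the alpha and gamma clusters are expressed more uniformly; the combination gives neurites of one cell a shared identity through which they recognise and avoid each other.

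The shared exons limit how well reads can be assigned. The coding transcript of an alpha member had a median of 2860 bases, 53.5% of its length, in exons of other members, and a gamma member 2119 bases, 44.8%; the median for beta members was 0. Of all 50-base stretches, a median of 40.0% in alpha, 55.2% in gamma and 95.7% in beta transcripts occurred in no other member's transcript. Transcripts of genes outside the clusters were not searched. Deposited values were fractional in 112 of 112 alpha, 167 of 168 gamma and 78 of 176 beta entries, so the values of alpha and gamma members are estimates that divide shared reads, and a difference between members of these clusters is less certain than one between beta members.

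Library totals ranged from 36438282 to 47838448 counts. Sap130, the other mutated gene and a subunit of the SIN3 histone deacetylase complex, was 49.8 ± 2.14 CPM (SD, n = 5) in controls and 34.4 ± 1.66 CPM (SD, n = 3) in mutants, a log2 change of -0.54 ± 0.07 (SE; edgeR adjusted p = 0.00291). CPM stands for counts scaled to the library's TMM-adjusted total. Some libraries stood apart in the summed levels of regional markers, for a cause that was not tested. The summed level of 15 Hox genes, which mark hindbrain and spinal cord, was near 0 in a pair of libraries, mutant 260-1 (0.407 CPM) and control 195-6 (2.82 CPM), against 204 to 451 CPM in the other 6, and 6 of the 15 were at 0 in at least 1 library. The summed level of 20 telencephalon genes was lowest in mutant 195-3 (491 CPM), then mutant 303-2 (1135 CPM), against 1826 to 2217 CPM in the other 6. Results are therefore also given without mutant 260-1 and control 195-6. In these bulk samples fewer cells of a type and less RNA per cell cannot be told apart.

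Many alpha and beta protocadherins and most C-type members were lower in the mutant brains, whereas the other gamma members were mixed. By edgeR's quasi-likelihood test with stage in the model, 8 of 14 alpha members were lower in mutants, 10 of 21 tested beta members were lower, and 4 of 21 gamma members were lower while 2 were higher. Among all 17357 genes tested, 9.74% were called lower and 10.9% higher. No alpha or beta member was called higher, and none of these 35 had an estimate above 0, so the count at an unadjusted p under 0.05 was also 0, as was the DESeq2 count. The median log2 change was -0.55 for alpha, -0.55 for beta and -0.20 for gamma, against -0.00052 for all genes. Pcdhb1 had at most a few counts in any library and was not tested.

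The counts of calls depended on single libraries. Without control 195-2 there were 3 alpha, 6 beta and 2 gamma members lower. Without mutant 303-2 there were 4, 5 and 2, and without control 303-3 there were 5, 5 and 2. The share of all genes called lower also fell, from 9.74% in the whole fit to 3.98%, 4.14% and 4.67% in these fits. Without mutant 260-1, which leaves the genotype comparison to the E14.5 embryos, 5 alpha and 4 beta members were lower, and the medians were -0.42 for alpha, -0.29 for beta and -0.21 for gamma. Gamma members called lower numbered 2 without control 260-2 and 9 without control 260-3. Of all genes, 5.89% were called lower without mutant 260-1, 5.57% without control 260-2 and 8.96% without control 260-3. Without both mutant 260-1 and control 195-6, the libraries low in Hox genes, 4 alpha, 5 beta and 3 gamma members were lower. That fit leaves the genotype comparison to mutants 195-3 and 303-2 against controls 195-2 and 303-3. The medians were -0.53, -0.42 and -0.21, and 5.65% of all genes were called lower. Of the 24 called members, 9 were called whichever single library was left out: Pcdha3, Pcdha11, Pcdhac2, Pcdhb13, Pcdhb17, Pcdhb19, Pcdhb21, Pcdhgc3 and Pcdhgc5.

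Summed over the 14 members, alpha RNA was 170, 166, 238, 196 and 235 CPM in controls 260-2, 260-3, 195-2, 195-6 and 303-3, and 107, 181 and 149.6 CPM in mutants 260-1, 195-3 and 303-2. Each mutant lay below every control of its own litter, but mutant 195-3 lay above both E13.5 controls, so the groups overlapped. The beta sum was 127, 122, 158, 134 and 159.8 CPM in the same controls and 71.3, 127 and 105 CPM in the mutants. Again mutant 195-3 was the highest mutant and overlapped the E13.5 controls. The gamma sum was 713, 654, 816, 751 and 784 CPM in controls and 567, 675 and 666 CPM in mutants. Most of that difference was in the C-type members: without Pcdhgc3, Pcdhgc4 and Pcdhgc5 the gamma sum averaged 442 ± 49.1 CPM (SD, n = 5) in controls and 431 ± 35.6 CPM (SD, n = 3) in mutants, a log2 ratio of -0.04 against -0.23 for the whole cluster.

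**Figure D1:**
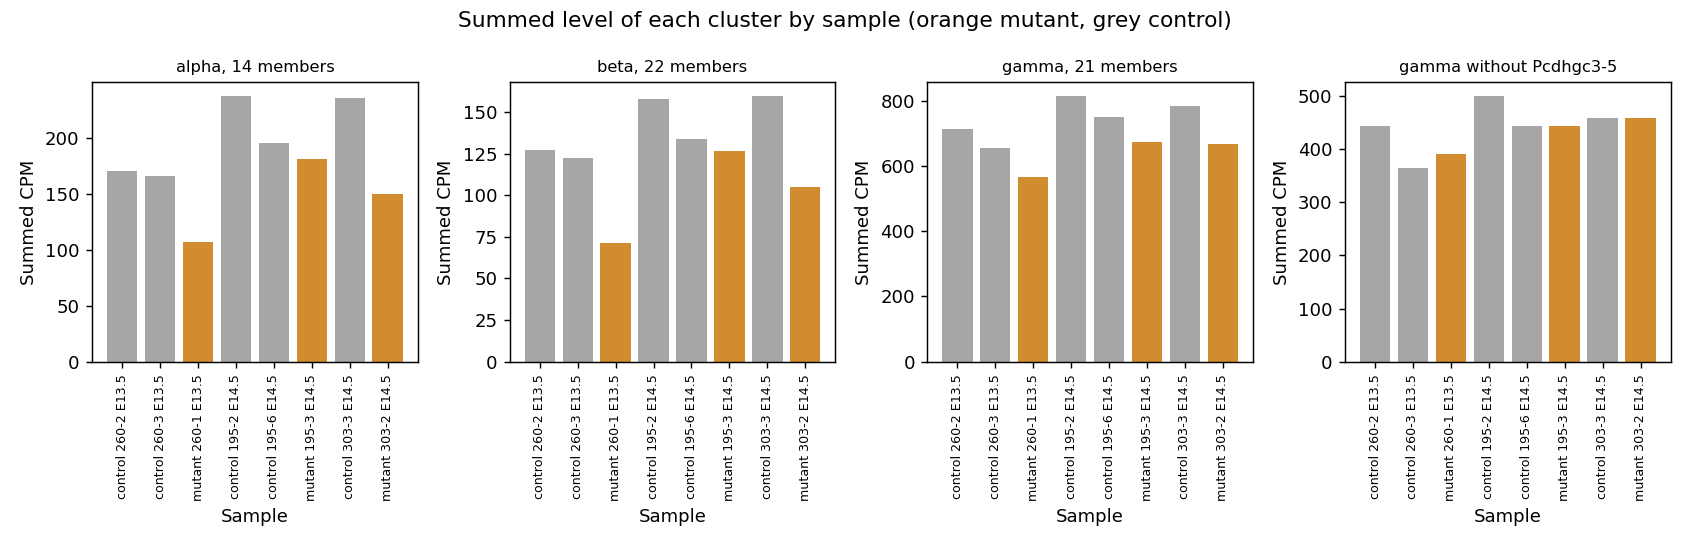
Summed CPM of the alpha, beta and gamma members in each of the 8 brains, with the gamma cluster also drawn without its C-type members. Bars are single samples grouped by litter, orange for mutants and grey for controls. In the alpha, beta and gamma panels each mutant is below the controls of its own litter, and without Pcdhgc3, Pcdhgc4 and Pcdhgc5 the gamma bars of the mutants (390 to 458 CPM) lie among those of the controls (365 to 501 CPM).

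The difference was not equal across litters. The median difference of a mutant from its litter's controls, on the log2 CPM scale, was -0.64, -0.28 and -0.65 for alpha members in litters 260, 195 and 303, -0.79, -0.11 and -0.64 for beta members, and -0.10, -0.24 and -0.14 for gamma members. Of the 14 alpha members 11 were lower in 3 of 3 litters, as were 14 of 21 beta and 13 of 21 gamma members, against 25.2% of all genes. In gamma 7 members and no alpha or beta member were higher in 3 of 3 litters, against 26.1% of all genes. The 2 controls of litter 195 also differed from each other: control 195-6, which was low in Hox genes, was below control 195-2 by a median of 0.31 log2 units for alpha, 0.23 for beta and 0.15 for gamma members. Mutant 195-3 differed from their mean by -0.28, -0.11 and -0.24. In litter 260 the 2 controls differed by a median of 0.05 for alpha, -0.08 for beta and -0.29 for gamma members (260-3 minus 260-2).

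Markers of other cell types and regions were compared in the same way. Of 15 genes that mark neurons in general, 5 were called lower and 1 higher in mutants with a median log2 change of -0.21, none was at 0 in any library, and their sum was 7280, 9998 and 8966 CPM in mutants 260-1, 195-3 and 303-2 against 8874 to 10560 CPM in controls. Mutant 260-1 lay below all controls and the other mutants within their range. Per 1000 CPM of this sum, a ratio chosen after the values were seen, alpha RNA was 14.7, 18.1 and 16.7 CPM in the mutants and 18.7 to 23.2 CPM in the controls. The same ratio for beta RNA was 9.79, 12.7 and 11.7 in mutants and 13.8 to 15.8 in controls. For gamma RNA it was 77.8, 67.5 and 74.3 in mutants and 73.7 to 79.7 in controls. By this ratio the groups were separate for alpha, where 18.1 in mutant 195-3 was just under the lowest control at 18.7, and for beta. They overlapped for gamma. The undivided sums overlapped for alpha and beta as well, so the separation rests on the chosen ratio. The share of all genes it would separate is not given here. Of 12 progenitor genes 5 were called higher and none lower, with a median of 0.21. Their sums were 3104, 1974 and 2402 CPM in the mutants and 1860 to 2434 CPM in controls. Of 12 midbrain and thalamus genes 11 were called higher, with a median of 0.735. Their sums were 779, 955 and 829 CPM in the mutants and 497 to 600.3 CPM in controls. Of 20 telencephalon genes 1 was called lower, with a median of -0.91. Their sums were 2074, 491 and 1135 CPM in the mutants and 1826 to 2217 CPM in controls. Among all genes 9.74% were called lower and 10.9% higher. The part of these marker differences in the protocadherin result was not tested.

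**Figure D2:**
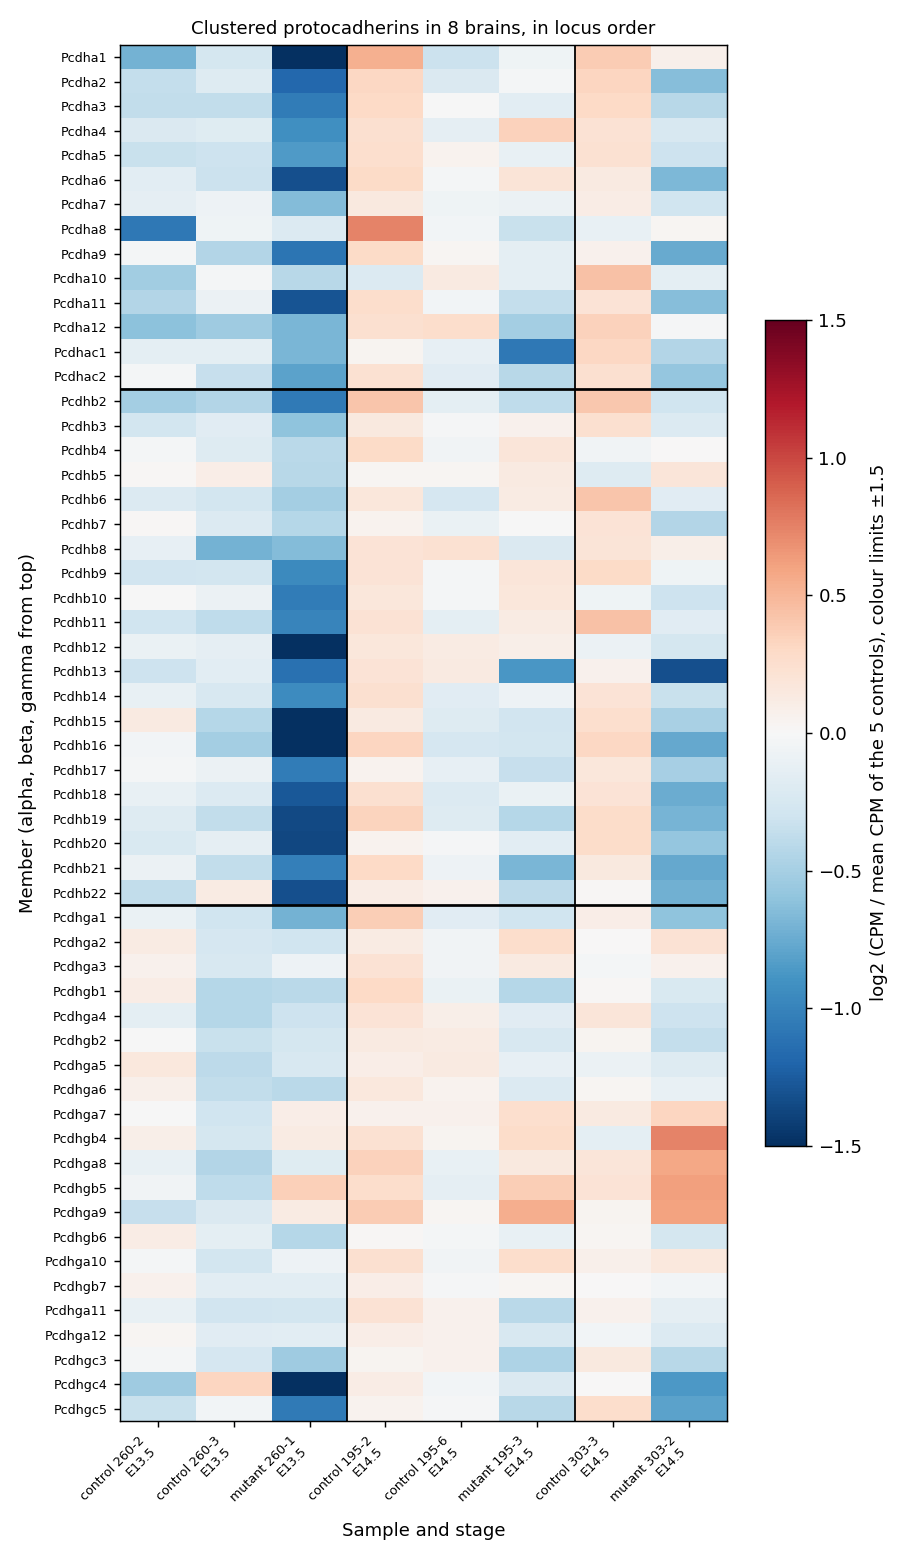
Level of each tested member in each brain as log2 of its CPM over the mean CPM of the 5 controls, in locus order from Pcdha1 to Pcdhgc5; columns are samples grouped by litter, and values below -1.5 are drawn in the darkest blue. The column of mutant 260-1 is blue over nearly all alpha and beta rows, the column of mutant 303-2 is blue over the late beta rows and red from Pcdhga7 to Pcdhga9, and the column of mutant 195-3 is the palest of the mutants.

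Pcdha9, the alpha gene that carries a mutant allele in this line, was measured at 19.8, 14.9, 24.6, 20.6 and 21.2 CPM in controls 260-2, 260-3, 195-2, 195-6 and 303-3 and at 9.46, 18.2 and 12.001 CPM in mutants 260-1, 195-3 and 303-2. Mutant 195-3 lay above control 260-3, and the other mutants lay below all controls. The log2 change was -0.66 ± 0.16 (SE; edgeR adjusted p = 0.0212), which lost the call without mutant 260-1, control 195-2 or mutant 303-2. Gene counts do not tell the mutant from the normal allele, so they do not check the genotype. Its share of all alpha counts was 10.1% ± 1.14 (SD, n = 5) in controls and 8.98% ± 1.02 (SD, n = 3) in mutants, with overlapping groups. The alpha members called lower were Pcdha2, Pcdha3, Pcdha5, Pcdha7, Pcdha9, Pcdha11, Pcdhac1 and Pcdhac2.

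Of the alpha genes that are not C-type, Pcdha11 and Pcdha3 had the smallest p. Pcdha11 was 8.47, 10.8, 13.9, 11.2 and 13.3 CPM in the 5 controls, in the order above, and 4.70, 9.03 and 7.38 CPM in mutants 260-1, 195-3 and 303-2. Only control 260-2 fell within the range of the mutants. It fell by 0.77 ± 0.15 (SE) on the log2 scale (edgeR adjusted p = 0.00845), and it was the one alpha member whose share of the cluster did not overlap, at 5.74% ± 0.542 (SD, n = 5) in controls and 4.77% ± 0.321 (SD, n = 3) in mutants. Pcdha3 was 13.6, 13.54, 21.4, 17.3 and 21.5 CPM in controls and 8.45, 15.6 and 13.1 CPM in mutants, with a log2 change of -0.55 ± 0.11 (SE; edgeR adjusted p = 0.0107). Mutant 195-3 lay above both E13.5 controls. Pcdha8, the lowest tested member of all at 0.287 CPM per kb in controls, had an estimate of -0.16, the smallest in the cluster, and was higher in 2 of 3 litters.

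The C-type members use the last variable exons of the alpha and gamma clusters and are set apart in sequence from the others. All 5 were lower in 3 of 3 litters, against 25.2% of all genes, and 4 of the 5 were called lower, against 9.74%. In 4 the groups did not overlap, against 8.60% of all genes with every mutant below every control. Pcdhac2, which in mice is needed for the even spacing of serotonergic axons, was 35.3, 28.4, 42.3, 32.1 and 42.6 CPM in the 5 controls and 20.8, 27.1 and 24.2 CPM in the mutants. The highest mutant lay just under the lowest control. Its log2 change was -0.61 ± 0.12 (SE; edgeR adjusted p = 0.00918), and it was called under all 20 alternatives. Pcdhac1 was 4.01, 3.98, 4.56, 4.07 and 5.48 CPM in controls and 2.76, 2.10 and 3.26 CPM in mutants, a log2 change of -0.71 ± 0.18 (SE; edgeR adjusted p = 0.0241). The groups were separate, with mutant 195-3 lowest here, and the call was lost without control 195-2 or control 303-3.

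Among the gamma C-type members, Pcdhgc3 had the highest level of all members per length, 44.4 ± 4.53 CPM per kb (SD, n = 5) in controls, followed by Pcdhgc4 at 16.9 ± 3.46; these levels include reads in the constant exons as the deposited values divide them. Pcdhgc3, which promotes dendrite branching in the mouse cortex, was 204, 174, 215, 217 and 231 CPM in controls and 143, 151 and 156 CPM in mutants. Every mutant was well below the lowest control. The log2 change was -0.48 ± 0.07 (SE; edgeR adjusted p = 0.00392), called under all 20 alternatives. Its share of the gamma counts was 28.0% ± 1.40 (SD, n = 5) in controls and 23.7% ± 1.49 (SD, n = 3) in mutants, again with no overlap.

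Pcdhgc5 was 6.99, 8.60, 9.19, 8.73 and 10.6 CPM in controls and 4.25, 6.61 and 5.05 CPM in mutants. The groups did not overlap, and the log2 change was -0.76 ± 0.14 (SE; edgeR adjusted p = 0.00811). Pcdhgc4, the gamma isoform required for the survival of many mouse neurons, was the most variable: 58.9, 107, 91.7, 82.8 and 85.5 CPM in controls and 28.7, 73.5 and 46.9 CPM in mutants. The 2 E13.5 controls were the extremes of the control group, and mutant 195-3 lay above the lower one. The estimate of -0.85 ± 0.30 (SE) did not pass the threshold (edgeR adjusted p = 0.0945).

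**Figure D3:**
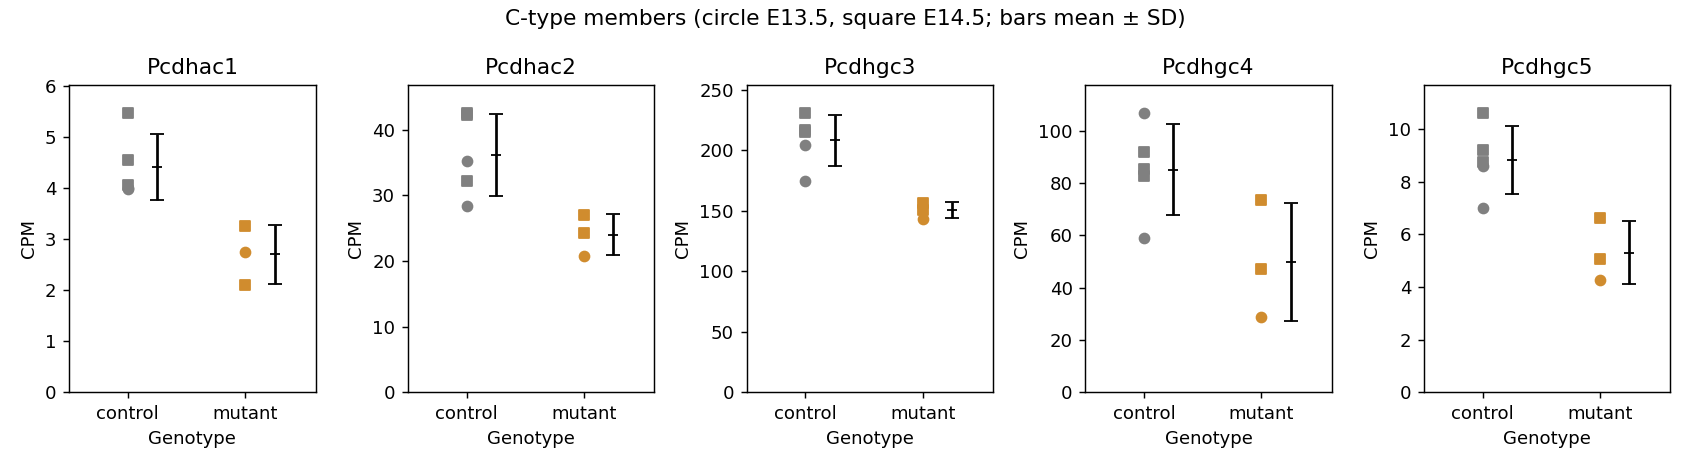
CPM of the 5 C-type members in controls and mutants, with circles for E13.5, squares for E14.5 and bars for the mean ± SD of 5 controls and 3 mutants. The groups are separate for Pcdhac1, Pcdhac2, Pcdhgc3 and Pcdhgc5 and overlap for Pcdhgc4, where mutant 195-3 at 73.5 CPM lies above control 260-2 at 58.9 CPM.

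In the beta cluster the difference was larger towards the end of the cluster. The first 7 tested members, Pcdhb2 to Pcdhb8, had a median log2 change of -0.26 with 1 called lower; Pcdhb9 to Pcdhb15 had -0.46 with 2 called; and Pcdhb16 to Pcdhb22 had -0.82 with 7 of 7 called, beside the 9.74% of all genes. The 8 neighbours from Pcdhb15 to Pcdhb22, a stretch picked for its calls after the values were seen, had estimates from -0.87 to -0.64. Across the 21 tested beta members, Spearman's rho between locus order and log2 change was -0.79, and it was -0.75, -0.52 and -0.67 in litters 260, 195 and 303. These members share libraries, so rho is a description. Between the 2 controls of a litter it was -0.10 in litter 260 and -0.09 in litter 195. Later beta transcripts were longer (rho of order with annotated length 0.52; medians of 3535, 3055 and 5041 bases in these 3 stretches of 7 members), and rho of length with log2 change was -0.32. With a length and GC offset per library, rho with locus order was -0.76 and the medians of the 3 stretches were -0.26, -0.37 and -0.73. Order and log2 change had a rho of -0.26 across 14 alpha members, at 0.46, -0.66 and -0.18 in litters 260, 195 and 303, and of -0.17 across 21 gamma members. Without mutant 260-1 rho was -0.66 for both alpha and beta, and without mutant 260-1 and control 195-6 it was -0.42 for alpha and -0.63 for beta. Leaving out mutant 195-3 put the alpha value at 0.11 and the beta value at -0.80.

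Pcdhb13 had the largest fold of all members: 1.83, 2.02, 2.60, 2.49 and 2.38 CPM in controls and 1.04, 1.24 and 0.908 CPM in mutants. All mutants were below all controls, with a log2 change of -1.09 ± 0.17 (SE; edgeR adjusted p = 0.0052) that was called under all 20 alternatives. Its neighbours Pcdhb12 and Pcdhb14 were not called, with estimates of -0.55 and -0.46. Pcdhb21 was 4.51, 3.71, 5.86, 4.55 and 5.29 CPM in controls and 2.35, 2.98 and 2.81 CPM in mutants, with no overlap. It fell by 0.84 ± 0.14 (SE) on the log2 scale (edgeR adjusted p = 0.0066) and was also called under all 20 alternatives. Pcdhb21 and Pcdhb22 overlap in the annotation, so reads in the shared stretch cannot be told apart.

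Pcdhb19 was 10.5, 9.34, 15.3, 10.6 and 14.7 CPM in controls and 4.72, 8.98 and 7.46 CPM in mutants, a log2 change of -0.84 ± 0.15 (SE; edgeR adjusted p = 0.008). The highest mutant was just below the lowest control. Of the 21 tested beta members, 5 had every mutant below every control, beside 8.60% of all genes: Pcdhb13, Pcdhb17, Pcdhb19, Pcdhb21 and Pcdhb22. At the other end Pcdhb4 and Pcdhb5 were nearly level, at -0.09 ± 0.14 and -0.03 ± 0.15 (SE), and neither was called. Within the beta counts the shares of Pcdhb3, Pcdhb4 and Pcdhb6 were higher in every mutant than in every control and those of Pcdhb19 and Pcdhb22 lower. Pcdhb4 took 3.69% ± 0.355 (SD, n = 5) in controls and 4.99% ± 0.424 (SD, n = 3) in mutants, without a test. Its mean level was not higher, at 5.155 CPM in controls and 4.964 CPM in mutants. Shares of the beta cluster sum to the whole, so lower levels of other beta members raise the rest.

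**Figure D4:**
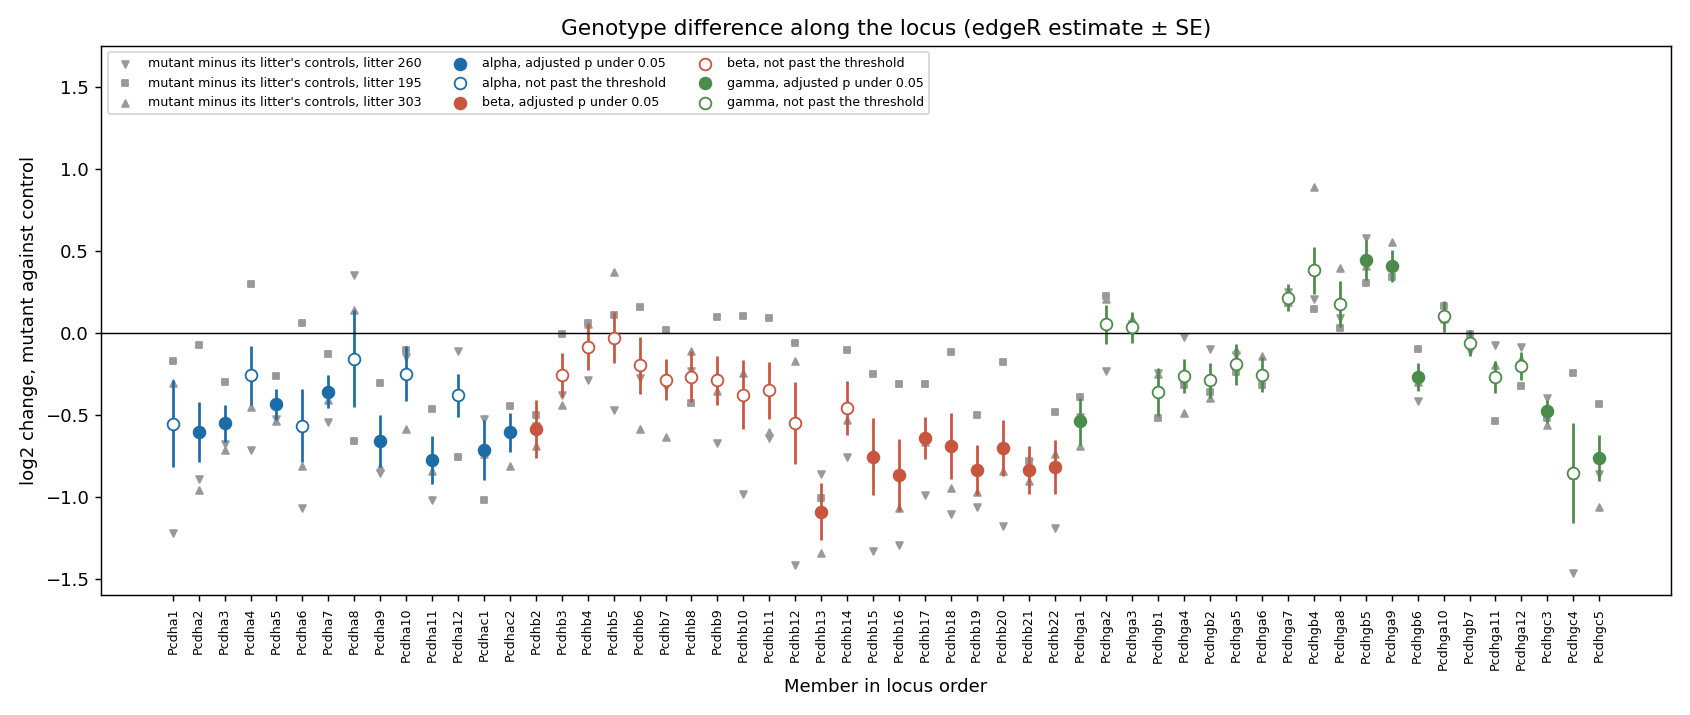
Log2 change between mutants and controls for the 56 tested members in locus order, with edgeR estimates ± SE in colour (filled where adjusted p was under 0.05) and the difference of each mutant from its litter's controls in grey. Alpha estimates are all below 0, beta estimates run from -0.03 at Pcdhb5 to between -0.87 and -0.64 from Pcdhb15 on, and gamma estimates are above 0 from Pcdhga7 to Pcdhga9 and lowest at Pcdhgc4 and Pcdhgc5.

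In the gamma cluster 2 of 21 members were called higher, beside 10.9% of all genes. They were Pcdhgb5 and Pcdhga9, which are next to each other. The preceding neighbours Pcdhga7, Pcdhgb4 and Pcdhga8 were not called. The estimates of these 5 members ran from 0.18 to 0.44. In 3 of 3 litters the mutant exceeded the mean log2 CPM of its litter's controls for each member, as for 26.1% of all genes. For Pcdhga8 this did not hold against single controls. Control 260-2 (17.5 CPM) exceeded mutant 260-1 (16.6 CPM), and control 195-2 (24.1 CPM) exceeded mutant 195-3 (20.9 CPM). The stretch from Pcdhga7 to Pcdhga9 was picked for its sign after the values were seen. Pcdhgb5 was 16.6, 13.2, 20.6, 15.7 and 19.8 CPM in controls and 22.04, 22.2 and 26.2 CPM in mutants, all above the highest control, as in 11.3% of all genes. It rose by 0.44 ± 0.12 (SE) on the log2 scale (edgeR adjusted p = 0.0318). Pcdhga9 was 13.6, 14.9, 22.4, 17.5 and 17.8 CPM in controls and 18.7, 25.2 and 26.1 CPM in mutants. Each mutant exceeded its own litter's controls, but mutant 260-1 lay below control 195-2. The log2 change was 0.41 ± 0.10 (SE; edgeR adjusted p = 0.0216). Neither was called without mutant 260-1, mutant 303-2 or control 303-3, and Pcdhgb5 alone was called without control 260-2 and Pcdhga9 alone without control 195-6. With the length and GC offset 4 members were called higher, adding Pcdhga7 and Pcdhgb4, beside 11.2% of all genes. The polymorphic pseudogene Pcdhgb8 of the same cluster, which is not a protein-coding member, was also called higher, at 0.52 ± 0.16 (SE; edgeR adjusted p = 0.0428).

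Pcdhga1, the first gamma gene, was also lower in mutants, with 10.8, 9.43, 14.9, 10.3 and 12.3 CPM in controls and 7.05, 9.43 and 7.63 CPM in mutants. Mutant 195-3 was level with control 260-3, and the others lay below all controls. Its log2 change was -0.54 ± 0.14 (SE; edgeR adjusted p = 0.0261). Pcdhga2 and Pcdhga3, next to it, had estimates of 0.05 and 0.03 and were not called. The fourth gamma member called lower was Pcdhgb6, at -0.27 ± 0.09 (SE; edgeR adjusted p = 0.0491). By subfamily, 1 of 12 A-type members was called lower and 1 higher, with a median of -0.08. Of 6 B-type members 1 was lower and 1 higher, with a median of -0.17. Among all genes 9.74% were called lower and 10.9% higher. As shares of the gamma counts, Pcdhga3, Pcdhga7, Pcdhgb4, Pcdhgb5, Pcdhga9 and Pcdhga10 were higher in every mutant than in every control, and Pcdhgc3 and Pcdhgc5 lower. Shares of one cluster sum to the whole, so a fall of the abundant Pcdhgc3 raises the others.

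**Figure D5:**
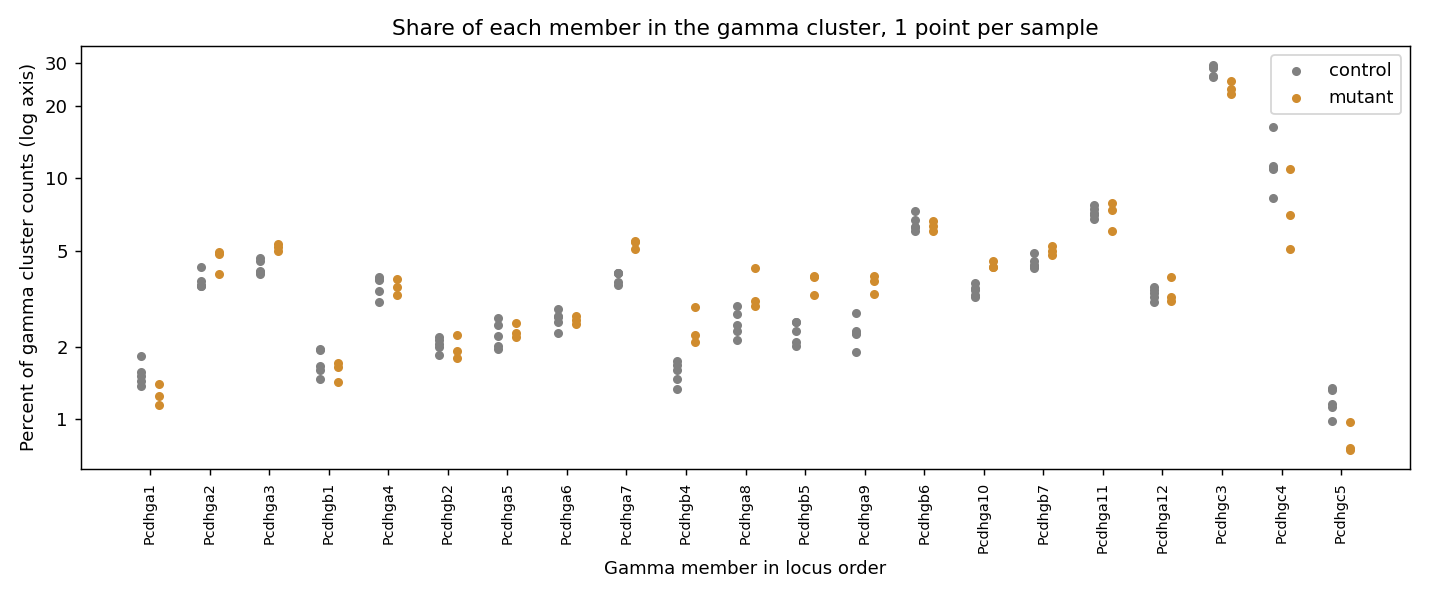
Percent of the gamma cluster's counts taken by each gamma member, on a log axis, with 1 point per sample for 5 controls and 3 mutants. Pcdhgc3 takes 26.3% to 29.4% in controls and 22.3% to 25.3% in mutants, and the mutant points of Pcdhga7, Pcdhgb4, Pcdhgb5, Pcdhga9 and Pcdhga10 lie above all control points.

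The second comparison was between stages. All 56 tested members had higher estimates at E14.5 than at E13.5, with medians of 0.54 for alpha, 0.44 for beta and 0.23 for gamma on the log2 scale, against 0.00124 for all genes. The edgeR test called 4 members higher and 0 lower, beside 2.24% of all genes called higher and 1.01% lower. At an unadjusted p under 0.05 there were 32 members, all of them higher, and DESeq2 called 20 higher and 0 lower. The shares of all genes for the unadjusted and DESeq2 counts are not given here. The rise was not particular to the clusters. Of 12 protocadherins outside them, edgeR called 2 higher and 0 lower for stage, with a median log2 change of 0.37. The E13.5 samples were 1 litter, so stage and litter cannot be told apart. The neuronal gene list had 1 of 15 called higher with a median of 0.27, and the progenitor list 5 of 12 called lower with a median of -0.49; their part in the stage result was not tested.

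The members called for stage were Pcdha3, Pcdha5, Pcdha12 and Pcdhga9. Pcdha5 was 13.1 and 13.3 CPM in the E13.5 controls, 19.7, 17.2 and 19.4 CPM in the E14.5 controls, 9.17 CPM in the E13.5 mutant and 15.3 and 13.4 CPM in the E14.5 mutants. Within each genotype both stages were separate, and the log2 change was 0.55 ± 0.09 (SE; edgeR adjusted p = 0.0359). Pcdha3, whose values are given above, was separate in the same way, at 0.64 ± 0.11 (SE; edgeR adjusted p = 0.0359). Pcdhga9 rose by 0.44 ± 0.10 (SE; edgeR adjusted p = 0.0496), a call that was lost with controls alone (adjusted p = 0.0645), with unrounded counts (adjusted p = 0.051) and with upper quartile factors (adjusted p = 0.0564). In the beta cluster none was called: Pcdhb9 had 0.64 ± 0.15 (SE; edgeR adjusted p = 0.0519) and Pcdhb2 0.72 ± 0.18 (SE; edgeR adjusted p = 0.0564). The count of 4 fell to 0 without mutant 260-1, control 260-2, control 260-3, control 195-2 or control 303-3, and rose to 10 without mutant 195-3 and 13 without control 195-6. With controls alone 4 members were called, without Pcdhga9 among them.

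Whether the mutant difference depended on stage was tested by the interaction term, with 1 mutant at E13.5. No member was called by edgeR, beside 0.104% of all genes. At an unadjusted p under 0.05 there were 8 members, 7 of them beta. The share of all genes at that threshold is not given here, so this count has nothing to be set against. Pcdhb12 had the smallest p, with 2.83 and 2.76 CPM in the E13.5 controls against 1.02 CPM in mutant 260-1, and 3.41, 3.28 and 2.85 CPM in the E14.5 controls against 3.20 and 2.53 CPM in the mutants. The interaction estimate was 1.31 ± 0.33 (SE; edgeR adjusted p = 0.246). Pcdhb5 had 0.67 ± 0.24 (adjusted p = 0.451), Pcdha4 0.69 ± 0.31 (adjusted p = 0.533), Pcdha1 1.03 ± 0.47 (adjusted p = 0.54), Pcdhga2 0.45 ± 0.21 (adjusted p = 0.549) and Pcdhga4 -0.37 ± 0.19 (adjusted p = 0.585), each with its SE from edgeR.

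Genes known to control the clusters showed small differences. The 19 regulators reported include Ctcf, the cohesin subunits, Smchd1, Wiz, Setdb1, Rest and the DNA methyltransferases. For genotype edgeR called 0 of them, beside 9.74% of all genes lower and 10.9% higher. Their estimates ran from -0.22 to 0.17, with a median log2 change of -0.04. Dnmt3a, Smc3 and Mau2 were the 3 with an unadjusted p under 0.05. DESeq2 called 1 of the 19 lower, beside 11.8% of all genes lower and 13.3% higher. It was Dnmt3a, a DNA methyltransferase that sets new methylation marks. Dnmt3a was -0.22 ± 0.07 (SE; edgeR adjusted p = 0.0587) and did not pass in edgeR. Of 21 partners and processing enzymes of protocadherins, 3 were called higher and 1 lower, beside 10.9% and 9.74% of all genes. Ptk2b, a focal adhesion family kinase, fell from 2.64 ± 0.782 CPM (SD, n = 5) to 0.945 ± 0.323 CPM (SD, n = 3), a log2 change of -1.47 ± 0.25 (SE; edgeR adjusted p = 0.00652). Pdcd10, an adaptor reported to bind protocadherin tails, rose by 0.50 ± 0.07 (SE; edgeR adjusted p = 0.0037); Marcks, an actin regulator and protein kinase C substrate, rose by 0.32 ± 0.06 (SE; edgeR adjusted p = 0.0105); and Aph1a, a gamma-secretase subunit, rose by 0.29 ± 0.08 (SE; edgeR adjusted p = 0.0298).

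Protocadherins outside the clusters were mixed. Of 12 nonclustered protocadherins 1 was called lower and 1 higher, beside 9.74% and 10.9% of all genes, with a median of -0.15. Pcdh1 fell from 82.7 ± 8.73 CPM (SD, n = 5) to 61.0 ± 9.11 CPM (SD, n = 3), at -0.46 ± 0.09 on the log2 scale (SE; edgeR adjusted p = 0.0118), and it lies within 500 kb downstream of the gamma cluster. Pcdh18 rose by 0.31 ± 0.07 (SE; edgeR adjusted p = 0.0139). Between the beta and gamma clusters lie Taf7, a TFIID subunit gene, and Slc25a2, a mitochondrial carrier gene. Taf7 had an estimate of -0.27 ± 0.09 (SE; edgeR adjusted p = 0.0536) and Slc25a2 -0.73 ± 0.31 (SE; edgeR adjusted p = 0.116), neither past the threshold.

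Genes flanking the locus were examined because the mutant alleles are on the same chromosome. Of 15 tested protein-coding genes within 500 kb upstream of Pcdha1, 4 were called higher (Pfdn1, Ndufa2, Sra1 and Wdr55) and 1 lower (Hbegf), with a median of 0.05. Ndufa2, a subunit of respiratory complex I, had the largest rise of these, 0.53 ± 0.11 (SE; edgeR adjusted p = 0.0126). Of 10 within 500 kb downstream 1 was called, Pcdh1, with a median of -0.05. Between Sap130 and Pcdha1, 10 of 70 tested genes were called higher and 4 lower, with a median of 0.03, beside 10.9% and 9.74% of all genes.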

How the data were processed

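RNA-seq was analysed from whole brains of 8 embryos (3 mutants, 5 controls); p-values measure the spread between them. Per the labels' protocols, column-purified total RNA was made into libraries with a TruSeq RNA kit. The submitters' processing notes list HTSeq 0.5.4p5, edgeR 3.4.2 and TopHat2 2.0.9 and the builds mm10 and GRCm38, without the role of each. The deposited table holds expected counts (estimated counts per gene, not normalised), of which 66.0% to 68.9% per sample were whole; the step that gave fractions, which HTSeq does not write, is not known here. Identifiers were named with GENCODE M21; 1 identifier named Pcdha11 there lies at the RefSeq place of Pcdha10 and is called Pcdha10 here. Members and lists were chosen with earlier results of these data known, and 1 gene of the regulator list is not reported here.

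Counts were rounded and analysed in R 4.3.3 with edgeR 4.0.16: filterByExpr with a minimum count of 10, TMM scaling and the robust quasi-likelihood test with stage and genotype, or their interaction, and Benjamini-Hochberg adjustment over 17357 genes with a threshold of 0.05. CPM uses TMM-scaled totals, log2 CPM a prior count of 2. The fit was tested on simulated data. No test was made of cluster sums, shares or positions. Full values are given for Pcdha9, the C-type members, the 3 called members of smallest p per cluster and direction for genotype and 2 for stage, and, in clusters without calls, the 2 of smallest p; of other lists up to 4 called genes. Other members and genes named were chosen after their values were seen. Alternatives were other scaling factors, filters, covariates, sample subsets, a length and GC offset (splines with 5 degrees of freedom), unrounded counts and DESeq2 1.42.0. Shared exons make alpha and gamma values depend on how reads were divided.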

Additional observations from a re-analysis of the deposited data

Results flagged for a closer look

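In 4 values, 1 of the 5 controls lay far from the other 4 by Dixon's test at 95% (gap over range above 0.71). Pcdhb22 was 9.87 CPM in control 260-2 against 12.9 to 13.96 CPM in the others. Pcdhb5 was 5.29 CPM in control 303-3 against 6.16 to 6.51 CPM, and Pcdhga6 was 14.9 CPM in control 260-3 against 19.8 to 21.7 CPM. Pcdhga2 took 4.28% of the gamma counts in control 260-2 against 3.58% to 3.74%. Chance flags about 1 in 20 such groups, and 3 of 56 members tested on CPM were flagged.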

How the results depend on the processing

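Of the 56 tested members 50 kept the sign of their genotype estimate under all 20 alternatives wherever they were tested. With the replicate block 17 of the 24 called members were called, and with the length and GC offset 20 were. The block called 7.58% of all genes lower and 7.96% higher, and the offset 7.56% and 11.2%. Leaving out each library in turn gave 3 to 10 alpha, 4 to 14 beta and 2 to 9 gamma members lower, 0 to 3 gamma members higher, medians of -0.64 to -0.42 for alpha, -0.66 to -0.29 for beta and -0.27 to -0.18 for gamma, and 0 to 13 members higher at E14.5. Over the fits with 1 library left out, 3.98% to 14% of all genes were called lower and 3.65% to 14.3% higher. Without the stage covariate 2 alpha, 4 beta and 2 gamma members were lower and 0 gamma members higher. With E14.5 samples only these were 2, 3, 1 and 0. Of all genes, 3.39% were lower and 5.13% higher without the covariate, and 4.32% and 4.4% with E14.5 samples only. Without mutant 260-1 and control 195-6, 4 alpha and 5 beta members were lower and 0 gamma members higher. In that fit 5.65% of all genes were called lower and 5.64% higher. DESeq2 gave 7 gamma members lower, beside 11.8% of all genes, and 20 members higher at E14.5. No filter gave 9 higher at E14.5. The length and GC offset gave 4 gamma members higher, 7 members higher at E14.5 and a gamma median of -0.0947. With the replicate block as well, 6 beta and 2 gamma members were lower, beside 6.17% of all genes, and the gamma median was -0.0734. The shares of all genes for these counts at E14.5 are not given here. With TMM factors the gamma log2 ratio of sums was -0.0367 without C-type members. With upper quartile factors, which moved the median of all genes to -0.05, it was -0.28 for the whole cluster and -0.09 without C-type members. The cause of these shifts was not tested. The litter number as a replicate block left 6 alpha, 7 beta and 3 gamma members lower and 1 gamma member higher. The shares of all genes were 7.58% lower and 7.96% higher. Pcdhgb5 lost its call (edgeR adjusted p = 0.0508). Deviations of a mutant and its litter's controls correlated over genes at 0.20, 0.03 and 0.15 in litters 260, 195 and 303. With the controls of other litters the values ran from -0.305 to 0.233, so the number was not taken as pairing samples in the main fit. Of 360 checks of single named members 291 stayed on the same side of the threshold, 57 lost the call, 12 gained it and none reversed. Low counts limit Pcdhb1, which was not tested.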
